A study of Mus musculus with 4 samples.

Results

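The CCAAT/enhancer-binding proteins (C/EBP) are transcription factors of the basic leucine zipper family, and 4 of their genes, Cebpa, Cebpb, Cebpd and Cebpg, were followed here through the mouse mammary epithelium. They were taken by name from the 31053 genes of the deposited count files. Their levels were read in 4 droplet-based single-cell 3′ RNA libraries, each from the fourth mammary glands of 1 FVB mouse. All 4 mice were homozygous for a floxed Tfap2c gene (Tfap2c fl/fl), which encodes the transcription factor AP-2γ, and carried Krt5-CreERT2, a Cre recombinase driven by the Krt5 promoter, which is used by basal epithelium, and switched on by 4-hydroxytamoxifen (4OHT). Corn oil, the vehicle, was injected into 2 of the mice and 4OHT into the other 2 from 4 weeks of age, and all were 9 weeks old at harvest. The labels give the course of injections as 5 days in one place and as a week in another, and no group lacks the floxed alleles or the Cre.

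C/EBP proteins bind DNA as pairs, with themselves, with each other or with relatives such as ATF4, so the balance of members matters as well as the level of each. C/EBPα (Cebpa) is best known for stopping growth and driving differentiation in liver, fat and blood. C/EBPβ (Cebpb) is needed in the mouse for normal mammary ducts and for milk-producing alveoli, and is made in longer activating and shorter inhibitory forms from the same RNA, which a gene count cannot tell apart. C/EBPδ (Cebpd) is an acute-phase factor switched on by STAT3, glucocorticoids and inflammation, and is known in the mammary gland for its part in involution after weaning. C/EBPγ (Cebpg) lacks an activation domain of its own and works largely as a partner, among others of ATF4 in the response to amino acid shortage and stress.

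The 3 promoter sequences below are shown because the genes behaved differently across the same cells, and they let the sequence before each gene's start be set beside its values. They are the 150 bases just before the start in RefSeq (GRCm38.p6), 5′ to 3′ on the gene's own strand, in lower case. Capitals mark the matches that fell in this stretch to a TATA box (TATAAA, in Cebpa), to the shared first part of a cAMP response element (TGACG, in Cebpb) and to a CCAAT box, which lies on the opposite strand and so reads ATTGG (in Cebpg).
Cebpa, chr7:35119143-35119292, plus strand: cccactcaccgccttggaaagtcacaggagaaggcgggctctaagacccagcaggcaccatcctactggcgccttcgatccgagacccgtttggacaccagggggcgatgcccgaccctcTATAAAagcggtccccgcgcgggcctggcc
Cebpb, chr2:167688765-167688914, plus strand: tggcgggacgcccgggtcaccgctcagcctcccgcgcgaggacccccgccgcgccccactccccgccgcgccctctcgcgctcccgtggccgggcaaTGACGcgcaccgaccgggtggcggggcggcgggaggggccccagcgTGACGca
Cebpg, chr7:35056567-35056716, minus strand: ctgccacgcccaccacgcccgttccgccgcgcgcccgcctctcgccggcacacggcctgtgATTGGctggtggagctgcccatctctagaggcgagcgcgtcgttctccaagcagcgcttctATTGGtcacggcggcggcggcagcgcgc

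Each motif was searched on both strands in the 250 bases before the start, and its share among 32851 RefSeq promoters of the same length is given beside it. Cebpa held 1 TATAAA, 30 bases before its start, and 12.4% of all promoters held one. Cebpb held 3 matches to TGACG, at 180, 53 and 7 bases before the start, against 17.8% of promoters with any, and 5 matches to the GC box GGGCGG, against 32.7% of promoters with any. Cebpg held 2 CCAAT boxes, at 89 and 28 bases before the start, and 33.8% of promoters held one. None of the 3 windows matched the C/EBP palindrome TTGCNNAA (9.56% of promoters), the STAT site TTCNNNGAA (7.02%) or the AP-2 site GCCNNNGGC (13.7%). The GC content of these windows was 66.4% for Cebpa, 81.6% for Cebpb and 70.8% for Cebpg. A match is a description of letters and not a bound site.

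In the GENCODE M21 annotation of GRCm38, Cebpa (ENSMUSG00000034957) is on the plus strand of chromosome 7, from 35119293 to 35121928. Cebpg (ENSMUSG00000056216) is on the minus strand of the same chromosome, from 35046422 to 35056573, so that the neighbours lie 62719 bases apart and point away from each other. Cebpb (ENSMUSG00000056501) is a gene of 1 exon at 167688915 to 167690418 of chromosome 2, and Cebpd (ENSMUSG00000071637) spans 15887286 to 15891031 of chromosome 16, both on the plus strand. Each of the 4 overlaps another annotated gene, among them the protein-coding Tmem189 opposite Cebpb and Spidr opposite Cebpd. The use of strand in the counting is not given in the sources used here, so reads of such partners may have been counted with them.

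Cells were placed in 3 epithelial classes by their keratin counts, and a class was never set by a C/EBP gene. Of 18223 cells, 7028 were basal, the outer contractile layer that uses Krt5, 5629 were luminal progenitor, the inner cells with alveolar genes, and 1168 were hormone-sensing luminal. A further 3532 cells with at least 1000 unique molecular identifiers (UMIs) fell in no class and were given no other name. Marker lists named another 266 endothelial-like, 126 fibroblast-like, 50 lymphoid-like and 33 myeloid-like cells, also outside the 3 classes. Markers outside the rule followed the names: 8 luminal progenitor genes summed to between 5954 and 8803 CPM (UMI counts scaled to a common total for each library and class) in progenitors and to at most 2635 in basal cells, and the basal and hormone-sensing lists were likewise highest in their own class. Total UMIs per library ran from 17351950 to 22017878, with a median of 3055 to 5299.5 UMIs per cell. Basal cells held Tfap2c, the gene that 4OHT should delete, at 389, 285, 285 and 325 CPM in corn oil replicates 1 and 2 and 4OHT replicates 1 and 2 (log2 fold change −0.08, standard error, SE, 0.25). This gene was not lower beyond the spread between libraries, so each group is named by its label, and every direction below rests on the labels. A 3′ count does not measure the deletion itself, and a library stands for 1 mouse.

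Cebpd was the 1 member whose libraries did not overlap between any pair of classes. The share of all genes that separate classes in this way was not counted, here or below, while 46.4% to 59.8% passed each class test. In CPM, taken over all UMIs of the class in that library, and in the order corn oil 1, corn oil 2, 4OHT 1 and 4OHT 2, luminal progenitors held 1092, 941, 892 and 1625, basal cells 421, 561, 748 and 571, and hormone-sensing cells 195, 123, 220 and 332. The lowest progenitor library stood above the highest basal library, and the lowest basal library above the highest hormone-sensing one. Cebpd was higher in progenitors than in basal cells by a log2 fold change of 1.22 (SE 0.18, 95% interval 0.84 to 1.61), with a Benjamini-Hochberg adjusted p of 2.74e-05 in edgeR's quasi-likelihood test over 12 library-by-class sums. It was lower in hormone-sensing than in basal cells by −1.46 (SE 0.19, adjusted p 4.92e-06, edgeR) and lower than in progenitors by −2.68 (SE 0.19, adjusted p 1.90e-08, edgeR).

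Cebpb was low in hormone-sensing cells in every library and varied widely in the other classes. Its levels were 2233, 490, 754 and 573 CPM in progenitors, 1188, 499, 823 and 407 CPM in basal cells, and 227, 95.3, 105 and 92.1 CPM in hormone-sensing cells, in the same order of libraries. Within each class corn oil 1 was the highest library, and the highest level was 4.56 times the lowest in progenitors and 2.92 times in basal cells. Progenitor and basal libraries overlapped, whereas every hormone-sensing library lay below all of them. The fall from basal to hormone-sensing cells was −2.46 on the log2 scale (SE 0.19, adjusted p 1.24e-08, edgeR), and that from progenitors to hormone-sensing cells was −3.05 (SE 0.19, adjusted p 4.27e-09, edgeR). The difference of progenitors over basal cells, 0.59 (SE 0.17, adjusted p 0.00783, edgeR), rested on corn oil 1. Without that library it was 0.39 with an adjusted p of 0.0673 in edgeR, and with no term for the library it was 0.77 with an adjusted p of 0.167.

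Cebpg was the steadiest member. Progenitors held 298, 265, 299.8 and 273 CPM, basal cells 264, 188, 273 and 248 CPM, and hormone-sensing cells 108, 101, 101 and 106 CPM. The highest hormone-sensing library was 1.07 times the lowest, and the highest progenitor library 1.13 times the lowest. Hormone-sensing cells did not overlap with the other classes, and progenitor and basal libraries did. Within each library progenitors stood above basal cells, and the fitted log2 fold change was 0.50 (SE 0.12, interval 0.25 to 0.75, adjusted p 0.00175, edgeR). The fit scales each sum by a normalisation factor (TMM) that plain CPM lacks. The CPM means, 284 in progenitors and 243 in basal cells, lay closer together than the fitted change. From basal to hormone-sensing cells Cebpg fell by 1.19 (SE 0.13, adjusted p 5.46e-07, edgeR), and from progenitors to hormone-sensing cells it fell by 1.69 (SE 0.13, adjusted p 2.72e-08, edgeR).

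Cebpa ran the other way and was highest in basal cells, at 35.6, 44.8, 31.3 and 27.9 CPM. Progenitors held 11.6, 25.3, 12.5 and 12.6 CPM and hormone-sensing cells 11.6, 19.999, 21.2 and 14.2 CPM, so no luminal library reached the lowest basal one. These levels rest on few molecules, 184 to 293 UMIs per library in basal cells and 15 to 36 in hormone-sensing cells. Cebpa was lower than in basal cells by −0.96 in progenitors (SE 0.16, adjusted p 9.58e-05, edgeR) and by −1.03 in hormone-sensing cells (SE 0.19, adjusted p 0.000173, edgeR). The luminal classes did not differ beyond their spread: the log2 fold change of hormone-sensing over progenitor cells was −0.07, with a 95% interval of −0.49 to 0.34.

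**Figure D1:**
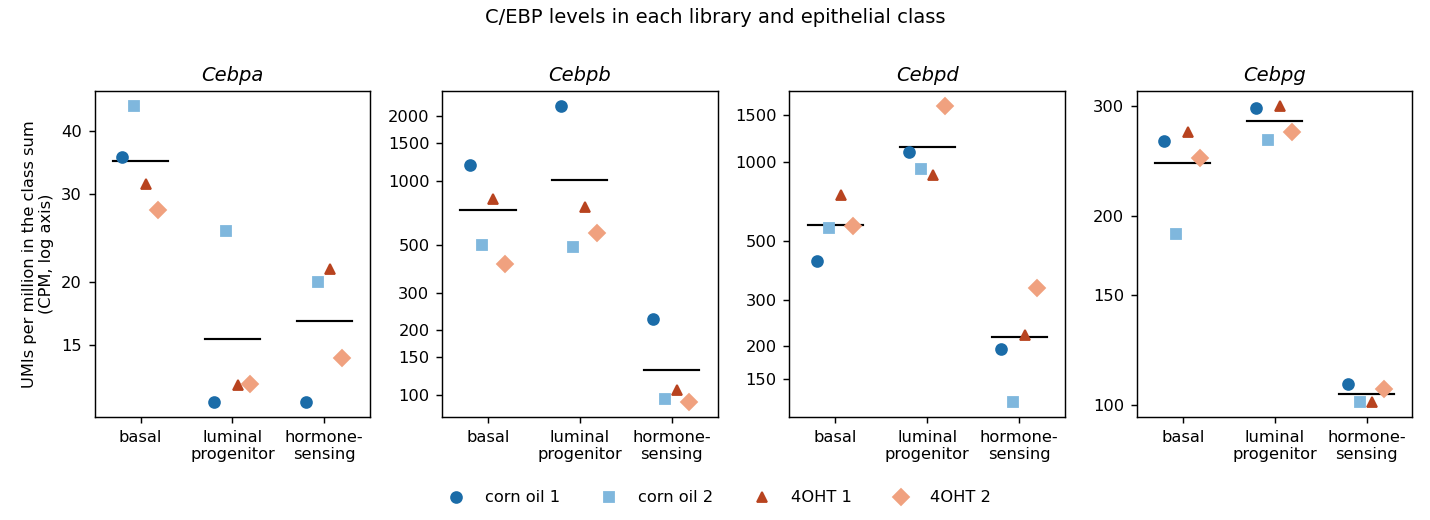
Level of each C/EBP gene in CPM of the class sum (vertical axis, logarithmic, with its own range for each gene) in basal, luminal progenitor and hormone-sensing cells. Each point is 1 library and each black line the mean of the 4; hormone-sensing libraries are the lowest for Cebpb, Cebpd and Cebpg, and basal libraries are the highest for Cebpa.

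All 4 members passed the filter on low counts, and all 4 passed the test between progenitors and basal cells, where 56.1% of the 11135 genes tested did, 26.6% higher and 29.5% lower. All 4 also passed lower in hormone-sensing than in basal cells, where 32.4% of genes passed lower, and 3 of 4 passed lower in hormone-sensing cells than in progenitors, where 24.6% did; the shares that passed higher were 27.3% and 21.9%, and those that passed in either direction 59.8% and 46.4%. With a log2 fold change of at least 1 required as well, Cebpd passed between progenitors and basal cells (29.9% of genes), all 4 between hormone-sensing and basal cells (38.3%), and Cebpb, Cebpd and Cebpg between the luminal classes (26%). With so many genes differing between classes, passing is common here, and what separates the members is the order of the classes and the size. Averaged over the 4 libraries, Cebpd went from 217 ± 86.5 CPM in hormone-sensing cells to 576 ± 134 in basal cells and 1137 ± 336 in progenitors (SD, n = 4 libraries). Cebpg went from 104 ± 3.45 to 243 ± 38.3 and 284 ± 17.9 CPM in the same order of classes. Cebpb went from 129.8 ± 64.8 to 729 ± 354 and 1012 ± 821 CPM, and Cebpa was at 16.7 ± 4.63, 34.9 ± 7.30 and 15.5 ± 6.55 CPM.

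The count per cell showed how unevenly each gene was spread. Cebpd was concentrated in few cells: the 10% of progenitors with the most Cebpd held 52.6%, 47.0%, 53.6% and 57.7% of its UMIs in the 4 libraries, and single progenitors reached 110, 70, 119 and 243 UMIs. Cebpg was spread more evenly, with 33.9% to 37.6% of its progenitor UMIs in the top 10% and no more than 12 in any progenitor. Cebpb in corn oil 1 was high across many cells and not in a few, since 43.6% of its progenitors held 10 or more Cebpb UMIs against 4.86%, 9.27% and 4.38% in corn oil 2, 4OHT 1 and 4OHT 2. Cells of corn oil 1 were also the most deeply read, with a median of 5281.5 UMIs per progenitor against 4780, 4375 and 3473.

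Because depth differed, cells were thinned to 2000 UMIs each before shares of cells with at least 1 UMI were compared, which left out 76 to 490 basal or progenitor cells per class and group as too shallow. At equal depth, Cebpb was found in 83.5% of basal cells in corn oil 1, 55.7% in corn oil 2, 71.0% in 4OHT 1 and 48.1% in 4OHT 2. Among progenitors the shares were 82.5%, 49.9%, 57.98% and 52.7%, and among hormone-sensing cells 27.8%, 11.04%, 11.9% and 14.7%, so corn oil 1 was the highest library in each class after thinning too. In basal cells 4OHT 1 was the next, nearer to corn oil 1 than to corn oil 2. The progenitor share was below the basal one in corn oil 1, corn oil 2 and 4OHT 1, and above it in 4OHT 2. Before thinning the basal shares were 96.7%, 70.5%, 85.9% and 60.2%.

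Cebpd was found at equal depth in 51.3% to 61.8% of progenitors, 34.8% to 44.6% of basal cells and 13.5% to 28.2% of hormone-sensing cells, and the ranges of the 3 classes did not overlap. Before thinning the basal range was 42.9% to 56.9% and the progenitor range 64.9% to 74.5%. Cebpg was found in 40.1% to 42.6% of progenitors, in 38.3%, 29.8%, 38.3% and 38.3% of basal cells, and in 15.7% to 19.9% of hormone-sensing cells. Cebpa was found in 4.61% to 7.71% of basal cells, 2.31% to 4.10% of progenitors and 1.32% to 3.67% of hormone-sensing cells.

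Free RNA in droplets can place a UMI in a cell that does not make it, and cells of other kinds in the same libraries give a sense of that level. Of 50 lymphoid-like cells, with library medians of 1646.5 and 2205 UMIs, 1 held a Cebpb UMI, 1 a Cebpd UMI and 5 a Cebpg UMI (2.0%, 2.0% and 10.0%). None held Cebpa, which allows a share of up to 7.11% (exact 95% limit). The shares of Cebpb, Cebpd and Cebpg in basal cells and progenitors were all above those of lymphoid-like cells. In hormone-sensing cells Cebpb and Cebpd lay above the lymphoid-like upper limit of 10.6% for each. Thinned Cebpg there, at 15.7% to 19.9%, lay inside the lymphoid-like interval of 3.33% to 21.8%, so its share was not told apart from that of lymphoid-like cells. Over all cells with at least 1000 UMIs in corn oil 2 and 4OHT 1, Cebpg had 3581 and 5996 UMIs. Cebpb had 7639 and 14826 and Cebpd 11293 and 13907, yet Cebpg was found in more lymphoid-like cells than either. Whether lymphoid-like cells make Cebpg themselves was not tested. Basal Cebpa, at 4.61% to 7.71%, lay on both sides of the 7.11% limit. The lymphoid-like cells came from corn oil 2 and 4OHT 1 alone. In 266 endothelial-like cells Cebpa was found in 1.88% (exact 95% interval 0.613% to 4.33%), and the thinned Cebpa shares in luminal classes lie inside that interval, so Cebpa there was not told apart from such background. Lymphoid-like and endothelial-like cells were not thinned, and all these intervals cover counting error only.

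In single cells the C/EBP genes did not simply go together. For each library, the share of cells with a UMI of one gene was compared between cells with and without a UMI of a second, at equal depth, over 67 pairs and classes. With 4 libraries the exact two-sided sign-flip test cannot go below 0.13, so no pair could pass at 0.05, and every pair that moved the same way in all 4 libraries had p 0.13 and an adjusted p of 0.270. The direction in each library and the size in percentage points are therefore what these data give.

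In basal cells, Cebpd was found less often in cells that held Cebpg. It was found in 30.2%, 30.5%, 34.7% and 29.3% of basal cells with Cebpg and in 41.2%, 45.9%, 50.7% and 38.2% of those without, lower by 12.9 points on average (−16.1 to −8.88, lower in 4 of 4 libraries). In progenitors the difference was −0.69 points on average and ranged from −7.10, in 4OHT 2, to 3.53 (exact p 1.00), and in hormone-sensing cells Cebpd was more frequent with Cebpg by 7.27 points (0.83 to 11.3, higher in 4 of 4 libraries). The basal difference was below the progenitor one by 12.2 ± 7.74 points (SD, n = 4 libraries), lower in 4 of 4 (exact sign-flip p 0.13, the smallest possible, and 0.13 after adjustment over 5 pairs chosen after their values were seen).

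Cebpd in basal cells was also less frequent where the targeted gene was found. With a Tfap2c UMI, 25.3%, 26.2%, 29.8% and 24.8% of basal cells held Cebpd, and without one 46.4%, 49.5%, 52.7% and 41.6% did, so that the ranges did not overlap and the mean difference was −21.0 points. In progenitors, where Tfap2c was at 35.3 to 52.2 CPM, the difference was −0.04 points on average. Atf4, whose protein pairs with C/EBPγ, went the same way as Tfap2c, with Cebpd lower by 15.4 points in basal cells that held it (−20.1 to −11.6).

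Other genes marked the basal cells that held Cebpd. Among basal cells with a UMI of Socs3, the STAT3 target that feeds back on cytokine signals, 67.7%, 72.2%, 77.5% and 72.9% held Cebpd, against 28.6%, 33.3%, 29.6% and 27.4% of the rest, a mean difference of 42.9 points. In progenitors, where Socs3 was at a mean of 26.9 CPM against 292 in basal cells, the same difference was 2.86 points, and the basal value exceeded it by 39.996 ± 10.3 points, in 4 of 4 libraries. Fos, an immediate early gene, went with Cebpd by 25.01 points in basal cells (14.3 to 36.5) and by 9.13 in progenitors. Lcn2, an iron-binding acute-phase protein with C/EBP sites in its promoter, went with Cebpd by 24.6 points in basal cells (18.9 to 27.5) and by 22.2 in progenitors (9.82 to 39.7).

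Cebpg showed the reverse of this pattern. In basal cells with an Atf4 UMI it was found in 41.8%, 33.4%, 42.1% and 40.7%, and in those without in 28.9%, 22.3%, 25.9% and 30.02%, higher by 12.7 points. Progenitors gave 10.3 points for the same pair. Basal cells with Tfap2c held Cebpg more often by 8.41 points (6.41 to 10.2), while Cebpg was less frequent by 10.5 points with Fos, by 12.4 with Socs3 and by 12.7 with Lcn2. The pair of Cebpg and Fos was also negative in progenitors, by −14.0 points (−16.3 to −11.3).

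Cebpb was found more often in progenitors and basal cells that held Cebpd. In progenitors it was found in 86.0%, 55.2%, 67.5% and 59.8% of cells with Cebpd and in 78.3%, 42.4%, 48.0% and 41.3% of those without, higher by 14.6 points and in 4 of 4 libraries. In basal cells the difference was 7.89 points (2.11 to 11.6). Progenitors with an Lcn2 UMI held Cebpb more often by 18.3 points (10.3 to 25.8), and basal cells by 6.34. Cebpa, found in few cells, differed by at most 2.40 points on average with any of the 8 partners tested.

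**Figure D2:**
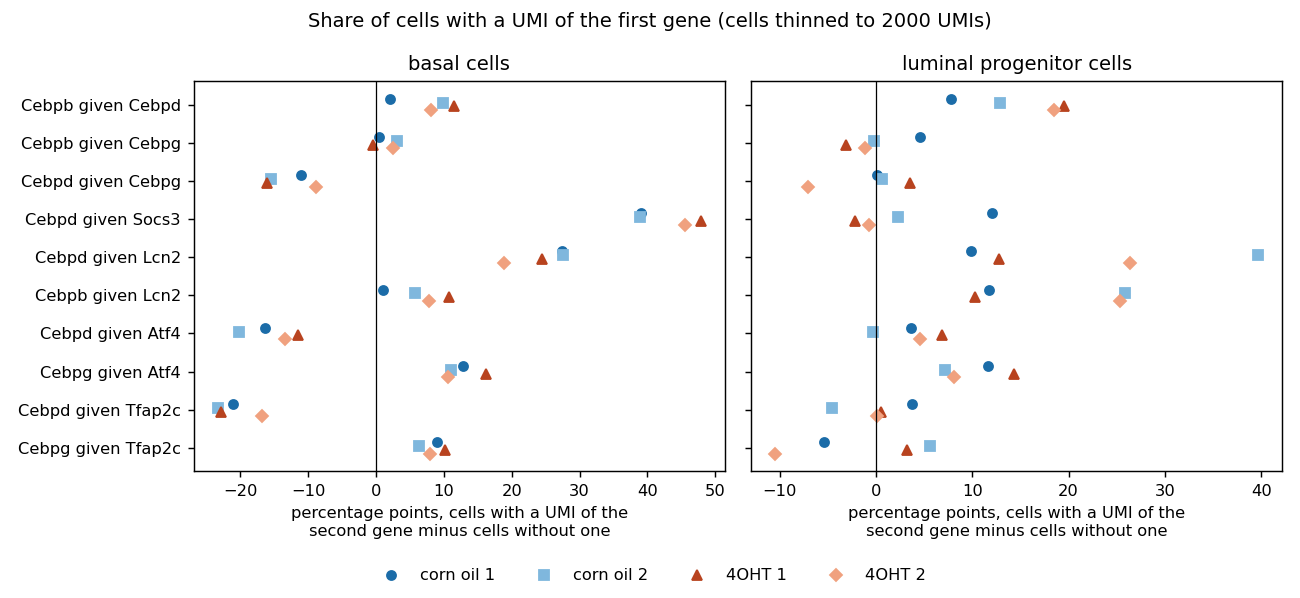
Difference, in percentage points, of the share of cells holding the first gene between cells with and without a UMI of the second, in basal cells (left) and luminal progenitors (right) thinned to 2000 UMIs. Each point is 1 library and the vertical line is 0; Cebpd lies left of 0 with Cebpg, Atf4 and Tfap2c in all 4 basal libraries, while progenitor libraries lie on both sides of 0 with Cebpg (−7.10 to 3.53).

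Basal cells with and without Cebpd also differed in other measures. The luminal keratins Krt8, Krt18 and Krt19 together averaged 1.95, 1.94, 2.61 and 2.58 UMIs in basal cells with Cebpd and 2.44, 3.07, 3.24 and 3.90 in those without, lower with Cebpd in 4 of 4 libraries. Median total UMIs before thinning were 4862, 3209, 3754 and 3054.5 with Cebpd and 5307, 3333, 4185 and 3079 without. Mitochondrial counts took 2.11%, 2.23%, 1.43% and 2.27% of UMIs with Cebpd and 1.90%, 2.16%, 1.64% and 2.26% without. The part of these differences in the pairs above was not tested.

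The same comparison over all genes gave each member its own list of companions in basal cells, with some genes on more than 1 list. These genes were picked after their values were seen, as the largest differences that kept 1 sign in 4 libraries, and carry no test. Basal cells with Cebpd held Tsc22d1 in 69.4% against 40.1% of the rest, the chemokine Cxcl14 in 81.1% against 50.3% and the lipid carrier Apoe in 74.2% against 47.2%, as means over libraries. Less often found with Cebpd were Ndrg1, in 33.6% against 67.4%, the disulfide oxidase Ero1l in 34.1% against 67.1% and the glycolytic enzyme Pgk1 in 41.4% against 70.6%. Basal cells with Cebpg held Ndrg1 more often, in 65.0% against 47.7%, and Apoe less often, in 48.0% against 63.5%, both opposite to Cebpd. They also held Ddit4 in 79.0% against 63.5%, the ER stress protein Manf in 70.2% against 53.5% and asparagine synthetase, Asns, in 32.9% against 19.5%. Pfkl, Hilpda and Bnip3 were also among the 8 genes most raised with Cebpg.

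Cebpb and Cebpa had other companions. Basal cells with Cebpb held Gadd45b in 49.7% against 38.3% and Junb, an immediate early gene, in 73.4% against 61.4%. Basal cells with Cebpa held the interferon-induced genes Oasl2 in 21.4% against 6.63% and Ifit1 in 20.5% against 6.96%. The Cebpa comparison rests on 75 to 135 cells with Cebpa per library, and its differences for Oasl2 ran from 9.19 to 25.6 points.

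**Figure D3:**
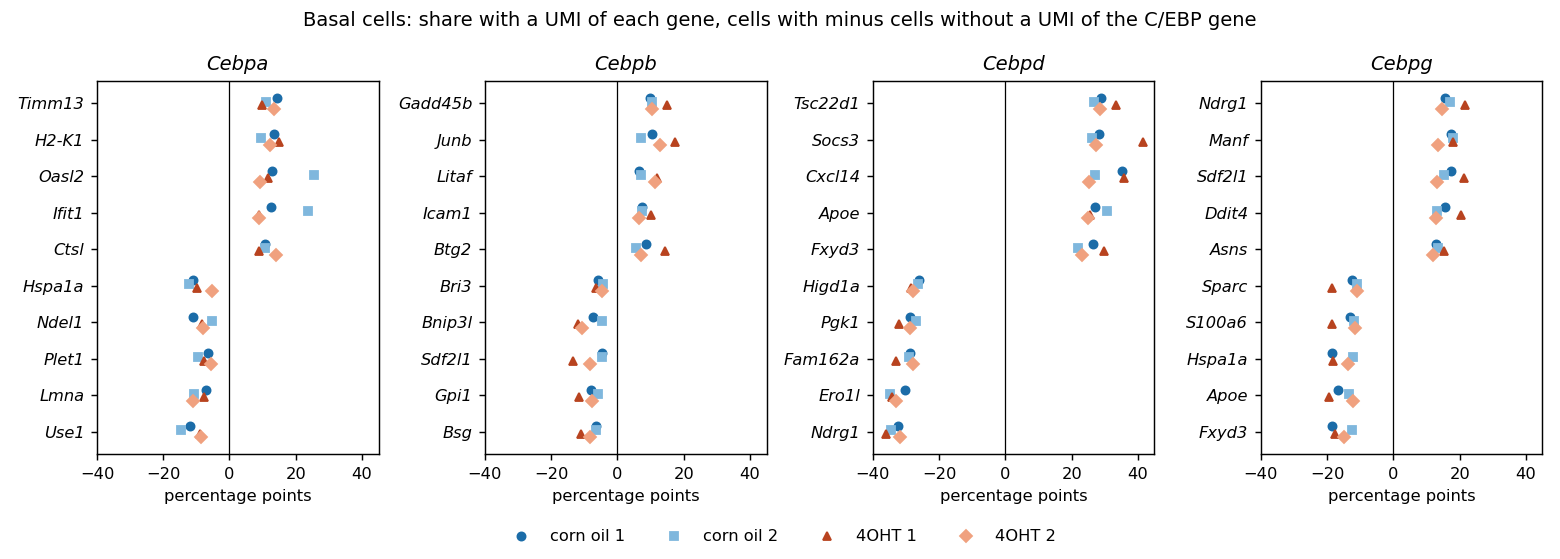
For each C/EBP gene, the 5 genes found more often and the 5 found less often in basal cells that held it, as the difference in percentage points of the share of cells with a UMI. Each point is 1 library; the differences for Cebpd are the widest, from about −36.1 points for Ndrg1 to 41.6 for Socs3, and Ndrg1, Apoe and Fxyd3 lie on opposite sides of 0 for Cebpd and Cebpg.

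The pathways around the C/EBP genes were read from lists of their relatives, inducers and targets, described by counts and by the median log2 fold change beside that of all 11135 genes tested. Among 11 tested relatives and partners, 3 were higher and 2 lower in progenitors than in basal cells, against 26.6% and 29.5% of all genes, with a median of 0.01 against −0.04. The circadian repressor Nfil3 fell from a mean of 198 CPM in basal cells to 27.9 in progenitors (log2 −2.55, adjusted p 2.30e-10, edgeR), and Ddit3, the stress-induced C/EBP relative CHOP, from 424 to 154 (−1.22, adjusted p 1.21e-05, edgeR). Trib1, which marks C/EBP proteins for degradation, rose by 1.60. In hormone-sensing cells 7 of the 11 were lower and 3 higher than in basal cells (32.4% and 27.3% of all genes), with a median of −0.75, and both Ddit3 (−2.84) and Atf4 (−1.34) were among the lower. Cebpe, the blood-cell member of the family, had no UMI in any class.

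Acute-phase genes were mostly highest in progenitors. Of 12 tested acute-phase and innate genes with C/EBP sites, 10 were higher and none lower in progenitors than in basal cells, where 26.6% and 29.5% of all genes were, with a median of 1.64 against −0.04. Cd14, the co-receptor for bacterial lipopolysaccharide, went from a mean of 10.98 CPM in basal cells to 532 in progenitors (log2 5.78, SE 0.27), and Lcn2 from 1590 to 4804 (1.95, SE 0.20), with adjusted p of 5.72e-11 and 6.10e-07 in edgeR. Cd14 and Lcn2 are also among the 8 luminal progenitor markers used above to check the class names, and Lcn2 makes up most of their sum in progenitors. In hormone-sensing cells Lcn2 was at 164 CPM, a log2 difference of −5.20 from progenitors. Of the 12 genes 9 were lower than in progenitors and 3 higher (24.6% and 21.9% of all genes). The 3, named after their values were seen, were Cxcl5 (2.54), the interleukin-1 receptor gene Il1r1 (2.84) and haptoglobin, Hp (2.67), which was at 421 CPM in hormone-sensing cells, 54.3 in progenitors and 4.91 in basal cells. All 5 milk genes tested were higher in progenitors than in basal cells (26.6% of all genes), with a median of 6.31. Among them Csn2 and Lalba were at 273 and 111 CPM.

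The genes of the ATF4 amino acid response were mostly highest in basal cells. Of the 13 on the list, 12 were lower and none higher in progenitors than in basal cells, where 29.5% and 26.6% of all genes were. The list's median was −1.16, while the fitted change of Cebpg was 0.50. Ddit4, a brake on mTOR, was at 1447 CPM in basal cells and 284 in progenitors (log2 −2.08, adjusted p 1.47e-10, edgeR), and Slc7a5, an amino acid transporter, was lower by −1.97. In hormone-sensing cells 12 of 13 were lower than in basal cells (32.4% of all genes), with a median of −3.18, and Cebpg was lower there too. From progenitors to hormone-sensing cells 11 were lower and 1 higher (24.6% and 21.9% of all genes), with a median of −2.06, and Cebpg was again lower. The list and Cebpg thus went in opposite directions between progenitors and basal cells and in the same direction in both contrasts with hormone-sensing cells.

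Lists of genes around the inducers of Cebpd differed from each other. Of 13 tested genes of the IL-6 family and STAT3 pathway, 4 were higher and 5 lower in progenitors than in basal cells. The shares of all genes were 26.6% and 29.5%, and the list's median was −0.17. In hormone-sensing cells 4 were higher and 5 lower than in progenitors, against 21.9% and 24.6% of all genes. Between progenitors and basal cells Socs3 was at −3.11 and the receptor Lifr at −2.86, and the kinase gene Pim1 was at 1.05. Among 8 glucocorticoid-responsive genes 4 were higher and 1 lower in progenitors than in basal cells (26.6% and 29.5% of all genes). Of these 8, Tsc22d3 (GILZ) was at 1.61 and Dusp1 at −1.67. None of the 8 was higher and 5 were lower in hormone-sensing cells than in progenitors (21.9% and 24.6% of all genes), as Cebpd was. Against basal cells 4 were higher and 4 lower in hormone-sensing cells (27.3% and 32.4% of all genes). Of 15 immediate early and dissociation genes, 4 were higher and 4 lower in progenitors, near the 26.6% and 29.5% of all genes. Junb was up by 0.93 and Egr1 was at −1.11. In hormone-sensing cells 11 were lower than in basal cells and none higher, against 32.4% and 27.3% of all genes. Of 8 genes of fat cells, where C/EBPα is a main driver, Pparg, Adipoq and Cidec had no UMI in basal cells. The list summed to 2.59, 25.8, 22.1 and 39.8 CPM there and to 0.77, 2.94, 7.08 and 76.4 CPM in hormone-sensing cells, and most of the highest values were Fabp4, a fatty acid carrier also made by endothelial cells and singled out after its values were seen, at 37.5 and 72.4 CPM in 4OHT 2.

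Between the treatment groups, none of the 4 C/EBP genes passed the test in any class. In basal cells 0% of 10788 genes tested were called by edgeR, with 465 at an unadjusted p under 0.05 and 36 called by DESeq2. In progenitors 0% were called, with 166 at an unadjusted p under 0.05 and 1 called by DESeq2, and in hormone-sensing cells 0.0132%, 1 gene that is no member, with 240 at an unadjusted p under 0.05. Basal cells held Cebpb at 843 ± 487 CPM under the corn oil label and at 615 ± 294 CPM under the 4OHT label (SD, n = 2 each); the fitted log2 change was −0.42 (95% interval −1.46 to 0.62). In progenitors it was at 1361 ± 1232 and 663 ± 128 CPM, a change of −0.97 (−2.28 to 0.33), and in hormone-sensing cells at 161 ± 92.9 and 98.5 ± 9.06 CPM, a change of −0.71 (−1.52 to 0.09). The groups overlapped in all 3 classes. These values turned on single libraries: without corn oil 1 the progenitor change was 0.57, and without corn oil 2 it was −1.69 with an adjusted p of 0.0299 in edgeR. Each of these fits left 1 corn oil-labelled library, which was assumed to vary as the 4OHT-labelled ones did.

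In basal cells the 4 Cebpb levels, 1188, 823, 499 and 407 CPM, followed the order of the libraries' median UMIs per basal cell, 5152.5, 3850, 3172 and 2827.5, with corn oil 1 first, then 4OHT 1, corn oil 2 and 4OHT 2. In progenitors they did not, since corn oil 2 had the lowest Cebpb and the second highest depth. The part of depth in the Cebpb levels was not tested beyond the thinned shares given above.

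Cebpd had fitted differences above 0 in all 3 classes. In hormone-sensing cells both 4OHT-labelled libraries, at 220 and 332 CPM, stood above both others, at 195 and 123, with a log2 fold change of 0.78 (SE 0.31, 95% interval 0.09 to 1.47); the unadjusted p was 0.0312 and the adjusted p 1.00 in edgeR. Both stood above both in basal cells too, at 748 and 571 against 421 and 561 CPM, a change of 0.45 (−0.16 to 1.06), and in progenitors the groups overlapped (0.42, −0.38 to 1.22). Over all genes tested, 17% in hormone-sensing cells and 13% in basal cells had both 4OHT-labelled libraries above both others, so the arrangement by itself is common. Fibroblast markers moved in hormone-sensing cells, where 6 such genes summed to 243, 53.5, 1346 and 238 CPM, and their part in the Cebpd values was not tested. At equal depth the share of hormone-sensing cells with Cebpd was 20.5% and 13.5% in the corn oil-labelled and 18.2% and 28.2% in the 4OHT-labelled libraries, which overlap. Thinned to 3000 UMIs, the shares were 19.9% and 19.5% against 28.5% and 31.5%, with no overlap, and the mean difference was 10.3 points in place of 6.20.

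For Cebpa, both 4OHT-labelled libraries lay below both corn oil-labelled ones in basal cells (29.6 ± 2.40 against 40.2 ± 6.52 CPM, SD, n = 2 each), an arrangement shared by 17.6% of genes, and the log2 fold change was −0.40 (−1.04 to 0.23). Its changes in progenitors and hormone-sensing cells were −0.45 (−1.33 to 0.44) and 0.07 (−0.88 to 1.02). Cebpg had the smallest fitted differences, of 0.26 (−0.30 to 0.81) in basal cells, 0.11 (−0.47 to 0.70) in progenitors and −0.05 (−0.62 to 0.52) in hormone-sensing cells. The difference of the 4OHT effect between classes, tested as an interaction, was passed by no member, against 0% of genes for progenitors and basal cells and 0.00898% for each contrast with hormone-sensing cells; for Cebpb it was −0.25 between progenitors and basal cells and for Cebpa 0.52 between hormone-sensing and basal cells (adjusted p 1.00 and 0.886 to 0.949 over the members, edgeR). With 2 libraries a group the intervals span changes of more than 1 on the log2 scale for Cebpb, so the data neither show nor bound out such changes.

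**Figure D4:**
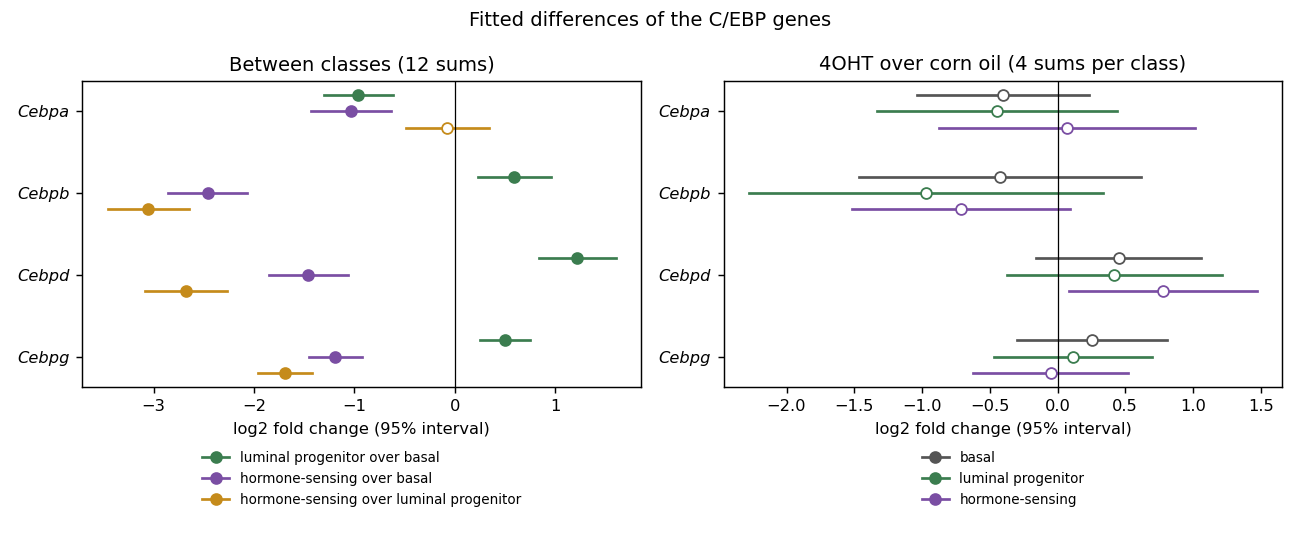
Fitted log2 fold changes of the C/EBP genes with 95% intervals, between epithelial classes (left) and between 4OHT-labelled and corn oil-labelled libraries within each class (right). Filled points have an adjusted p under 0.05 in edgeR and open points do not; all class differences but that of Cebpa between the luminal classes are filled, and every treatment difference is open.

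Genes around the C/EBP family were not called between the treatment groups either. No tested gene of the 9 pathway lists passed in any class. In basal cells 13 of 15 immediate early and dissociation genes had a change above 0, with a median of 0.66 against −0.02 over all genes, and the list's summed level was 5916 and 7177 CPM in the corn oil-labelled and 8222 and 8773 in the 4OHT-labelled libraries. These are genes that also rise when tissue is taken apart, and Cebpb and Cebpd are known to respond to like stimuli; their part in the Cebpd values was not tested. Milk genes in progenitors had 1 of 7 above 0 and a median of −1.49, from 1958 and 2302 CPM summed in the corn oil-labelled to 303 and 876 in the 4OHT-labelled libraries, and in basal cells the 4 milk genes tested had a median of −0.89. Of the fat cell genes only 2 were tested in basal cells, with a median of 1.47. The acute-phase list had a median of 0.48 in basal cells and 0.16 in progenitors, and Lcn2 was at 0.52 (SE 0.29) in progenitors.

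Across the 12 library-by-class sums, the levels of Cebpd and Cebpg had a Pearson r of 0.91, those of Cebpb and Cebpg 0.90 and those of Cebpb and Cebpd 0.77. Cebpa had no r above 0.18 with any other member. Once each class mean was taken away the same values were 0.16, 0.22 and −0.22 in that order, and Cebpa and Cebpb had −0.63. Most of the likeness among the other members was thus the order of the classes. The points share libraries and depth, and these values are descriptions. Among the 4127 genes that averaged 20 CPM or more, the nearest to Cebpg in level were Serpinb6a (0.99), the STAT3 target Pim1 (0.98), Plpbp, Sept11 and Mgat4b. The nearest to Cebpd were Eif1ax (0.97), the zinc transporter gene Slc39a14 (0.96), Tubb2a, Tbc1d10a and Tspan8, and those to Cebpb were Zfp36l2 (0.96), Nfe2l1 (0.96), Sqstm1, Dnajc21 and Sf1. For Cebpa they were Ckap4 (0.93), Tmem51, Papola, Sox4 and Tmem165. With class means removed the nearest were Wipi2 (0.92) for Cebpa, Jund (0.91) for Cebpb, Gtf3c6 (0.95) for Cebpd and Cldn1 (0.94) for Cebpg, and only Ckap4, Zfp36l2 and Plpbp stayed among the 5 nearest to the same member.

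Cycling cells were rare, with 11, 5, 3 and 6 progenitors holding at least 3 UMIs of a 10-gene cycling list. In them Cebpd, in CPM, was below its level in progenitors with none by −1.17 on the log2 scale (−1.81 to −0.22, lower in 4 of 4 libraries), and Cebpg by −0.68 (lower in 4 of 4), each with an exact sign-flip p of 0.13, the smallest possible, and 0.188 after adjustment over 3 members. Cebpb was lower in 2 of 4 libraries and higher in the others (mean −0.27, exact p 0.625).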

How the data were processed

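Single-cell 3′ RNA libraries from the mammary epithelium of 4 mice were analysed, 2 labelled corn oil and 2 labelled 4OHT. The deposited matrices give, for each cell, the number of UMIs of each gene as raw counts. The authors made these counts with Cell Ranger 3.0.1 and the mm10 genome, per the submitters' processing notes, and strand use, intron use and cell calling are not given in the sources used here. The counts were summed per library and class over cells with at least 1000 UMIs. With B the sum of Krt5, Krt14, Krt17 and Acta2 and L that of Krt8, Krt18 and Krt19, basal cells had B of at least 5 and over 3 times L, and luminal cells the reverse. Luminal cells were hormone-sensing where Ly6d, Fxyd2 and Gpx3 summed to at least 3 and to more than Wfdc18, Csn3 and Ltf, and progenitor otherwise. Among cells in no class, endothelial-like, fibroblast-like, lymphoid-like and myeloid-like cells were named by at least 3, 5, 2 and 3 UMIs of their marker lists. No doublet caller was run, and leaving out cells above 3 times the median UMIs of their class was an alternative. Between 18 and 36 cell barcodes were shared by any pair of libraries.

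Sums were tested with edgeR 4.0.16 in R 4.3.3, with TMM factors, the filterByExpr filter, the quasi-likelihood test and Benjamini-Hochberg adjustment at 0.05 over all genes tested. Class contrasts and interactions used 12 library-by-class sums with the library as a block, and DESeq2 1.42.0 was an alternative. CPM was computed here from the counts without TMM factors, so fitted changes can differ from ratios of CPM. Likeness used log2 CPM with TMM factors and a prior count of 1. Shares were taken in cells thinned to 2000 UMIs. Their exact intervals (Clopper-Pearson) cover counting error only, and exact permutation tests were run in Python 3.11.15. With 2 libraries against 2 the permutation test of a share cannot go below 0.333. Each library is 1 mouse, and p-values measure the spread between these libraries. Replicate numbers are not said to mark pairs. The tests were tested on simulated data.

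The 4 members and all lists were chosen with earlier results of these data known, so no list is independent evidence. The genes named from a list are at most 4 that passed with the largest change and a mean of at least 20 CPM, and the genes of most alike pattern are the 5 of highest Pearson r. The Cebpd promoter and the protein sequences were not used here.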

Additional observations from a re-analysis of the deposited data

Results flagged for a closer look

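Cebpg was also present in cells that the keratin rule placed in no class, that no other marker list named, and that the comparisons above do not use. In the 3532 such cells it was at 238 and 213 CPM in the corn oil-labelled libraries (mean 226 ± 17.9, SD, n = 2) and at 292 and 259 CPM in the 4OHT-labelled ones (mean 275 ± 23.2, SD, n = 2). It was singled out because both 4OHT-labelled libraries stood above both others in data outside the main measurement. The difference was not tested. The share of all genes with this arrangement was not counted in these cells, and it was 13% in basal and 17% in hormone-sensing cells. The cells of no class numbered 559 and 649 in the corn oil-labelled libraries and 1122 and 1202 in the 4OHT-labelled ones. Their summed basal markers were 2563 to 4122 CPM and their summed luminal progenitor markers 1501 to 3555 CPM. Basal cells summed to 1136 to 2635 CPM for the same luminal progenitor markers. Such sums cannot tell single cells with both kinds of marker from a mixture of basal and luminal cells.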

How the results depend on the processing

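Of 455 values recomputed under other settings, 422 kept their direction and their side of the threshold or stayed within the spread between replicates. No treatment difference of a C/EBP gene passed under any of those settings. Genes called between the treatments, 0 in basal cells, 0 in progenitors, 1 in hormone-sensing cells and 0 over all cells, became 93, 39 and 59 in the 3 classes without the filter on low counts and 167, 9 and 3 with a replicate block, which called no member. Same-numbered libraries deviated together (r 0.56 in basal cells, 0.32 in progenitors), but with 2 pairs the numbers were not taken as pairs. DESeq2 called 36, 1 and 14 in basal cells, progenitors and all cells, and hormone-sensing cells gave 0 with cells of at least 2000 UMIs or 1 fit over 12 sums. Interaction calls, 0 for progenitors against basal, 1 for hormone-sensing against basal and 1 for hormone-sensing against progenitors, became 39, 80 and 35 without the filter. The second was 0 with RLE factors, at 2000 UMIs or under the strict class rule (10 UMIs and 10 times), and the third was 0 with RLE factors. Leaving out 1 library gave 17 to 127 calls in basal cells, 31 to 64 in progenitors and 4 to 80 in hormone-sensing cells, and 0 to 7, 0 to 14 and 0 to 6 for the interactions. Apart from leaving out a library, 6 log2 changes turned sign. Under the strict rule Cebpa in hormone-sensing cells was −0.0043, Cebpa between the luminal classes 0.0617, the Cebpd interaction of hormone-sensing against basal −0.0448 and the Cebpb interaction of hormone-sensing against progenitors −0.0294, or −0.0723 without cells of very high UMIs. The Cebpa interaction of progenitors against basal was −0.0068 at 2000 UMIs. Cebpb between progenitors and basal cells was 0.77 and did not pass without the library block. Leaving out 1 library turned 21 of 332 values and left a treatment group of 1, assumed to vary like the other. The treatment change of Cebpb then ran from −0.88 to 0.27 in basal cells, −1.69 to 0.57 in progenitors and −1.39 to 0.31 over all cells. That of Cebpa ran from −0.87 to 0.18 in progenitors and −0.31 to 0.65 in hormone-sensing cells. That of Cebpd ran from −0.16 to 0.83 in progenitors and −0.0285 to 0.48 over all cells, and that of Cebpg from −0.12 to 0.00015 in hormone-sensing cells. The class difference of Cebpb ran from 0.39 to 0.79 for progenitors against basal cells and that of Cebpa from −0.28 to 0.0364 between the luminal classes. Interactions of progenitors against basal cells ran from −0.77 to 0.35 for Cebpb, −0.26 to 0.35 for Cebpa and −0.68 to 0.47 for Cebpd. Those of hormone-sensing against basal cells ran from −0.58 to 0.0429 for Cebpb and −0.21 to 0.78 for Cebpd, and those of hormone-sensing against progenitors from −0.64 to 0.58 for Cebpb and −0.34 to 0.0149 for Cebpg. Thinned to 3000 UMIs, the 4OHT minus corn oil share of Cebpa in basal cells was −2.67 points (−1.29 at 2000) and that of Cebpg in hormone-sensing cells 3.85 (−1.55), and Cebpg with Atf4 was 18.1 in basal cells and 16.6 in progenitors. Under the strict rule the Cebpd share in basal cells differed by 8.66 points (0.53), Cebpd with Atf4 in basal cells by −11.5 and Cebpg with Tfap2c by 5.31. Cebpb in cycling progenitors was −2.72 with cells of at least 5 cycling UMIs, where 4OHT 1 had no Cebpb UMI. Causes were not tested. Depth limits Cebpa most, with 15 to 36 UMIs per library in hormone-sensing cells.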

Other observations

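The companions of the C/EBP genes within the luminal classes are given as values, picked after they were seen as the largest differences of 1 sign in 4 libraries, with no test. Progenitors with Cebpb held Junb in 82.3% against 64.8% of the rest, Zfp36, which destabilises inflammatory mRNAs, in 34.4% against 19.3%, and Pde4b, a cAMP phosphodiesterase, in 32.5% against 16.6%, as means over libraries. Progenitors with Cebpd held Mfge8, a milk fat globule protein, in 52.9% against 36.2% and Itm2b in 67.5% against 53.3%. Progenitors with Cebpg held Wwtr1, the Hippo pathway co-activator TAZ, in 41.6% against 29.2% and Eif4ebp1, a translation inhibitor, in 52.9% against 38.7%, while Eif4ebp1 was less frequent in progenitors with Cebpb, at 41.3% against 50.3%.

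Cebpa and Cebpg had opposite values for Dbi, an acyl-CoA-binding protein. Progenitors with Cebpa held Dbi in 62.5% against 39.6%, and those with Cebpg in 32.9% against 45.4%. Progenitors with Cebpa also held Igfbp5 in 47.9% against 26.7% and Txnip in 59.2% against 37.0%. Cebpa was found in 29 to 45 thinned progenitors per library.

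Hormone-sensing cells with Cebpb held Ier3 in 60.6% against 37.0% and Ddit3 in 18.1% against 7.69%. Those with Cebpd held Gadd45b in 52.9% against 32.0% and Jun in 54.2% against 40.2%.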
